A study of Homo sapiens with 18 samples.

Results

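The genes described here are 10 listed targets and effectors of the Hippo pathway, chosen by name: the target genes CCN1, CCN2, ANKRD1, AMOTL1, AMOTL2, LATS2 and AXL, the coactivator YAP1, and its DNA-binding partners TEAD1 and TEAD4. All 10 were found among 60709 genes with counts and all 10 were among the 15189 genes tested. RNA was sequenced from MDA-MB-231 cells, a mesenchymal line of triple-negative breast cancer, in 18 libraries that form 6 groups of 3. The groups were sh-IGFBP6 cells given DHA, given erastin or left as vehicle control, and sh-LUC cells given DHA, given erastin or left as vehicle control. The sh-IGFBP6 cells carry a short hairpin RNA against IGFBP6, whose protein is secreted and binds insulin-like growth factors, and the sh-LUC cells carry a hairpin against luciferase. DHA is docosahexaenoic acid, a polyunsaturated fatty acid, used at 200 µM. Erastin blocks cystine uptake and induces ferroptosis, an iron-dependent death driven by lipid peroxidation, and was used at 2.5 µM. Treatment lasted 24 h and began 24 h after plating 800000 cells per well. Controls received 0.5% DMSO and 0.5% ethanol. The labels give neither the hairpin sequences nor whether each line is a clone or a pool, and do not say whether the 3 libraries of a group came from separate cultures. The p-values then measure only the spread between these libraries, which may be technical.

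In the Hippo pathway, the kinases STK3 and STK4 with their scaffold SAV1 activate LATS1 and LATS2, and these phosphorylate the coactivators YAP1 and WWTR1 (TAZ), which are then kept out of the nucleus and degraded. Unphosphorylated YAP1 and WWTR1 enter the nucleus, bind TEAD factors and switch on genes of growth, matrix and cytoskeleton, among them CCN1, CCN2 and ANKRD1. AMOTL1, AMOTL2 and LATS2 are targets that also restrain YAP1, and so form a negative feedback. MDA-MB-231 cells carry a loss-of-function mutation of NF2, an upstream activator of the pathway, and are widely used as a cell line with active YAP1. YAP1 is controlled mostly at the protein level, which messenger RNA does not report.

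The 10 genes did not move as a block. With DHA, CCN1, ANKRD1 and AMOTL2 fell in both lines, as did TEAD1, whose sh-LUC call was lost when single libraries were left out. CCN2 fell in sh-IGFBP6 cells, and LATS2 rose in sh-IGFBP6 cells and fell in sh-LUC cells. With erastin, CCN1 and AMOTL2 fell in sh-IGFBP6 cells and rose slightly in sh-LUC cells, rises whose calls were lost when single libraries were left out. LATS2 rose and AXL fell in both lines with erastin. In sh-LUC cells alone, AMOTL1 was called lower and CCN2 higher with erastin. ANKRD1 rose with erastin in sh-IGFBP6 cells, and its small rise in sh-LUC cells lost its call without single libraries. Between the untreated lines, CCN1, ANKRD1 and AXL were lower and TEAD4 was 2.06-fold higher in sh-IGFBP6 cells.

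TEAD factors bind the motif CATTCC, and the promoter letters of the target genes are shown for that motif. The sequences are from the RefSeq promoter table on GRCh38.p14, which spans 250 bases before to 50 after each start and matched 7 of the 10 genes with 9 entries. CCN1, TEAD1 and TEAD4 were not matched. CATTCC or its reverse complement GGAATG stood in 6 of these 7 genes and in 6 of their 9 entries, and in 14.0% of all 35116 promoters of the table. The AP-1 motif TGANTCA on either strand stood in 1 of the 7 genes, ANKRD1, at 195 bases upstream, and in 7.71% of all promoters. The CArG box of serum response factor stood in 0 of the 7 genes and in 1.29% of all promoters. CCN2 held 3 copies of the TEAD motif, at 169, 104 and 95 bases upstream of its start, and no other matched member held as many. For that reason its window (chr6:131951374-131951622, minus strand) is shown, as the first 249 of the 250 bases before the start. ANKRD1 held 2 copies, at 220 and 128 bases upstream (chr10:90921290-90921319 and chr10:90921198-90921227, minus strand). AMOTL2 held 1 at 69 bases upstream in 1 of its 2 entries (chr3:134374499-134374528, minus strand) and AXL 1 at 212 bases in 1 of its 2 entries (chr19:41226531-41226560, plus strand). The entries of ANKRD1, AMOTL2 and AXL that hold the motif have starts inside the gene spans given below. The other AMOTL2 and AXL entries, at the 5′ end of the gene span, held none. YAP1 held 1 at 162 bases upstream (chr11:102110273-102110302, plus strand) and LATS2 1 just after its start (chr13:21061560-21061589, minus strand), and AMOTL1 held none in this window. The AMOTL1 entry also has its start inside the gene span, so the 5′ end of that span was not examined. Each sequence reads 5′ to 3′ on the strand of its gene, with the motif in capitals.
CCN2 upstream window: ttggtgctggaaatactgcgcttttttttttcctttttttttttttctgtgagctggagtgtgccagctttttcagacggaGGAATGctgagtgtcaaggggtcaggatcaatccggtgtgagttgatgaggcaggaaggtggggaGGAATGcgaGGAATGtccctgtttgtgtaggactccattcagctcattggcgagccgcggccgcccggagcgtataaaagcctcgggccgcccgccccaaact
ANKRD1 distal site: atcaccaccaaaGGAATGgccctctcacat
ANKRD1 proximal site: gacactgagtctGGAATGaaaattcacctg
AMOTL2 site: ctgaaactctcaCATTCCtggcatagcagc
LATS2 site: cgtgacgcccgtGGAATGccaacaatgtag
AXL site: cagactttgcacCATTCCactccctccgct
YAP1 site: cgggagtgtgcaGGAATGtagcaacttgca
These matches are a description of letters, and binding of TEAD factors was not measured here.

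Of the 18 libraries, 17 held between 2708143 and 7977429 counts. The third sh-IGFBP6 erastin library held 609936, of which 54.4% lay on the mitochondrial ribosomal RNA genes MT-RNR1 and MT-RNR2; the other libraries had 0.0349% to 0.5043% there. Its 10 genes had 27 to 210 counts each, so results on sh-IGFBP6 erastin are also given without it where a call changes. IGFBP6 averaged 1.39 ± 0.807 CPM in sh-IGFBP6 control and 19.4 ± 1.92 CPM in sh-LUC control (SD, n = 3 each), where CPM is counts scaled to 1e+06 per library after TMM normalisation. VIM (750.5 to 1422 CPM) and CD44 (543 to 1440 CPM) were high in all libraries, and the luminal receptors ESR1 and PGR did not exceed 3 CPM. Other markers of the luminal list were higher, with EPCAM at 2.83 to 22.9 CPM and ERBB2 at 66.3 to 106 CPM. Endothelial markers (4 genes) summed to 4.92 to 6.62 CPM in sh-IGFBP6 control and 7.43 to 9.34 CPM in sh-LUC control. The 4 leukocyte markers summed to at most 2.11 CPM in sh-IGFBP6 libraries and 4.95 CPM in sh-LUC libraries, with CD3E and LYZ at 0 in sh-IGFBP6 control and LYZ at 0 in sh-LUC control. The 4 fibroblast markers, nearly all of it COL1A1, summed to 5.41 to 7.83 CPM in sh-IGFBP6 control and 34.6 to 42.1 CPM in sh-LUC control, with DCN at 0 in sh-IGFBP6 control; the part of COL1A1-expressing cells in the differences between lines was not tested. With libraries scaled by total counts alone, 0 to 4 of the 10 genes were called per comparison (4.98% to 53.4% of all genes), and 5 to 9 when the third sh-IGFBP6 erastin library was also left out (17.7% to 64.1% of all genes).

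CCN1 (formerly CYR61, ENSG00000142871.18, chr1:85580761-85583962) encodes a secreted matricellular protein that binds integrins. Its 3 libraries held 412, 401 and 414 CPM in sh-IGFBP6 DHA, 422, 403 and 541 CPM in sh-IGFBP6 erastin, and 653, 644 and 585 CPM in sh-IGFBP6 control. In sh-LUC cells they held 853, 789 and 805 CPM with DHA, 1060, 1090 and 1230 CPM with erastin, and 991, 1002 and 1044 CPM in controls. Every sh-IGFBP6 library (401 to 653 CPM over 9) lay below every sh-LUC library (789 to 1230 CPM over 9). The share of all genes that separate the lines in this way was not counted, for CCN1 as for AXL and TEAD4 below. Between the untreated lines 64.6% of all genes were called. With DHA, CCN1 fell in sh-IGFBP6 cells by 0.62 on the log2 scale (SE 0.06, edgeR adjusted p = 1.1e-16) and in sh-LUC cells by 0.31 (SE 0.06, 6.1e-06). With erastin it fell by 0.54 in sh-IGFBP6 cells (SE 0.06, edgeR adjusted p = 1.9e-12), against a log2 change of 0.15 in sh-LUC cells (SE 0.06, 0.0186). The direction under erastin thus differed between the lines, by -0.70 (SE 0.08, edgeR adjusted p = 2.3e-11). The small rise in sh-LUC cells was lost without the third sh-LUC erastin library (log2 change 0.09) or without the first (0.14) or second (0.15) sh-LUC control library and with DESeq2 (0.15), and its adjusted p ranged from 0.00157 to 0.908 over the alternatives. In bulk RNA, fewer cells of a type and less RNA per cell cannot be told apart.

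CCN2 (formerly CTGF, ENSG00000118523.6, chr6:131948176-131951373, minus strand), whose promoter window held 3 TEAD motifs, encodes a related matricellular protein that promotes fibrosis. It held 188, 182 and 185 CPM in sh-IGFBP6 DHA, 336, 305 and 491 CPM in sh-IGFBP6 erastin, and 331, 354 and 313 CPM in sh-IGFBP6 control. In sh-LUC cells it held 341, 363 and 318 CPM with DHA, 402, 424 and 463 CPM with erastin, and 288, 300 and 328 CPM in controls. The sh-IGFBP6 DHA group was the low one, and its libraries overlapped with those of no other group. CCN2 fell to 0.556 of its control level with DHA in sh-IGFBP6 cells (log2 fold change -0.85, SE 0.08, edgeR adjusted p = 6.2e-09), while in sh-LUC cells the change was 0.16 (SE 0.08, 0.213), with overlapping groups. The difference between these responses was -1.0 (SE 0.12, edgeR adjusted p = 2.4e-07). Without the third sh-IGFBP6 erastin library, which shares its estimate of spread with all groups, the sh-LUC change of 0.16 had an edgeR adjusted p of 0.0431, within a range of 0.00548 to 0.778 over the alternatives. With erastin the line that changed was the other one: CCN2 rose 1.40-fold in sh-LUC cells (0.49 on the log2 scale with SE 0.08, edgeR adjusted p = 1.2e-05), against 0.02 in sh-IGFBP6 cells (95% interval -0.15 to 0.19, adjusted p = 0.907; -0.05 without the third library). These erastin responses differed by -0.47 (SE 0.12, edgeR adjusted p = 0.00368), and DESeq2 gave -0.42 with an adjusted p of 0.0672, within a range of 4.8e-08 to 0.192 over the alternatives. The antisense gene AL133346.1, which overlaps 8.34% of the CCN2 exons, had 56 counts in all 18 libraries; the strand setting of the counting is not given in the sources used here.

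ANKRD1 (ENSG00000148677.7, chr10:90912096-90921276, minus strand) encodes a nuclear ankyrin repeat protein found first in heart muscle. It held 372, 357 and 361 CPM in sh-IGFBP6 DHA, 660.2, 588 and 800 CPM in sh-IGFBP6 erastin, and 459, 486 and 485 CPM in sh-IGFBP6 control. With sh-LUC it held 313, 289 and 353 CPM with DHA, 754, 774 and 833 CPM with erastin, and 666, 708 and 759.7 CPM in controls. DHA brought both lines to their lowest ANKRD1 levels, and the sh-LUC DHA group lay below all others although sh-LUC controls lay above sh-IGFBP6 controls. ANKRD1 fell by 1.16 with DHA in sh-LUC cells (SE 0.06, edgeR adjusted p = 9.6e-26), the largest change of any member with a treatment, and by 0.39 in sh-IGFBP6 cells (SE 0.06, 3.8e-07). The responses differed by 0.77 (SE 0.09, edgeR adjusted p = 9.5e-11). With erastin it rose by 0.45 in sh-IGFBP6 cells (SE 0.07, edgeR adjusted p = 5.0e-08) and by 0.15 in sh-LUC cells (SE 0.06, 0.0422). The sh-LUC erastin and control groups overlapped, and that call was lost without the first (log2 change 0.10) or second (0.14) sh-LUC control or the second (0.16) or the third (0.10) sh-LUC erastin library and with DESeq2 (0.14), with adjusted p between 0.00284 and 0.926. The erastin responses differed by 0.30 (SE 0.09, edgeR adjusted p = 0.00655), and by 0.22 without the third sh-IGFBP6 erastin library. The call was lost without the first sh-IGFBP6 erastin library (0.23) and with no filter on low counts (0.24), with adjusted p between 3.3e-04 and 0.98 over the alternatives.

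**Figure D1:**
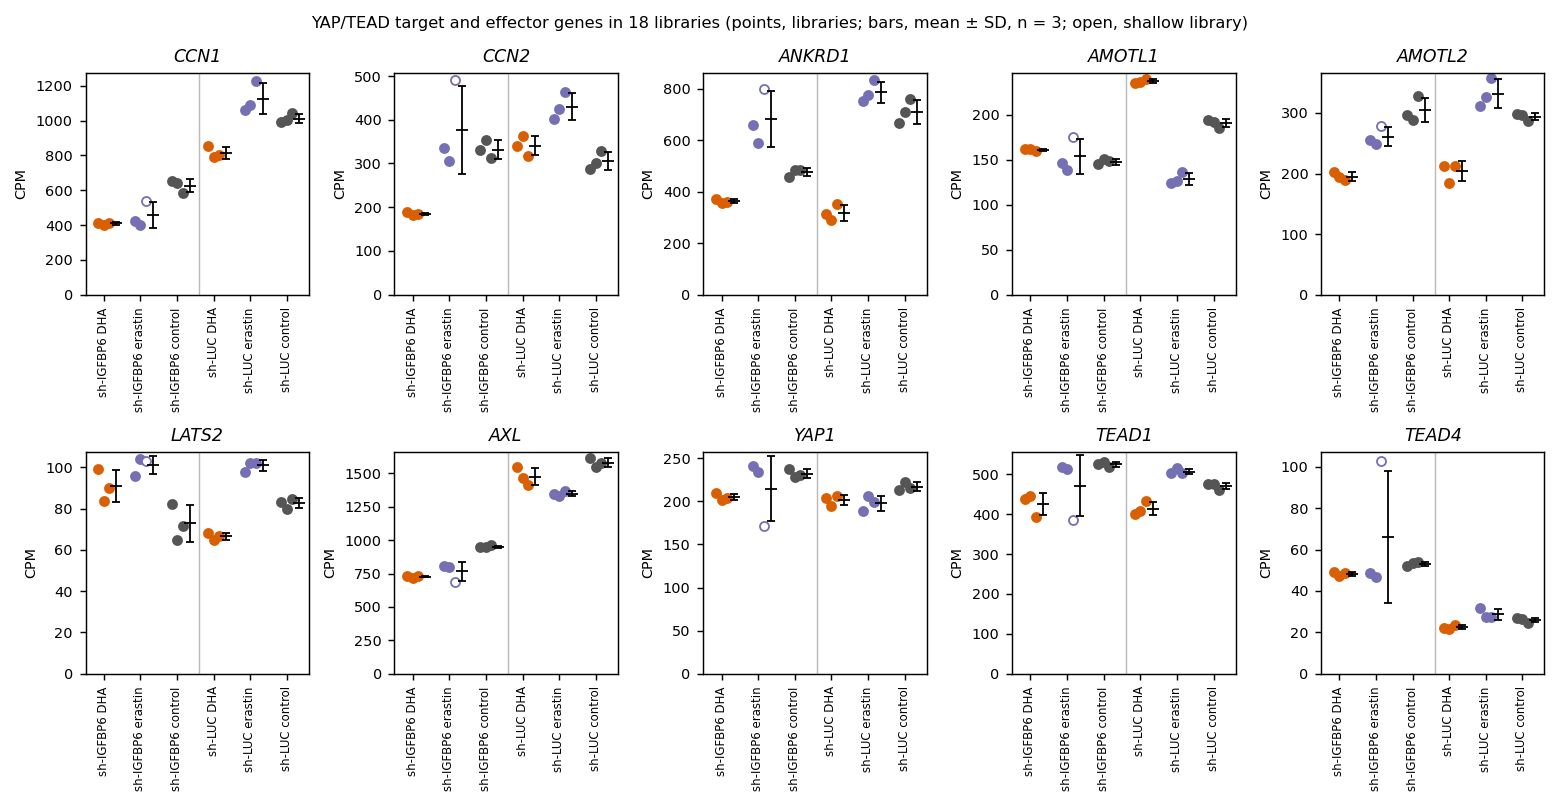
Level of each of the 10 genes (CPM, linear axis from 0) in every library, grouped by line and treatment; bars are the mean ± SD of 3 libraries and the open circle is the shallow library, the third sh-IGFBP6 erastin library. CCN1, AXL and TEAD4 separate the lines without overlap, CCN2 is lowest in sh-IGFBP6 DHA (182 to 188 CPM), and ANKRD1 is lowest in sh-LUC DHA (289 to 353 CPM). The share of all genes that separate the lines in this way was not counted.

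The feedback genes AMOTL1, AMOTL2 and LATS2 went separate ways. AMOTL1 (ENSG00000166025.18, chr11:94706431-94876753), an angiomotin family member that binds and sequesters YAP1, held 162, 162 and 160.1 CPM in sh-IGFBP6 DHA, 147, 139 and 175 CPM in sh-IGFBP6 erastin, and 145, 151 and 149 CPM in sh-IGFBP6 control. The sh-LUC cells held 236, 237 and 240.5 CPM with DHA, 124, 126 and 136 CPM with erastin, and 194, 192 and 186 CPM in controls. The 3 sh-LUC groups did not overlap: DHA lay above control and erastin below. AMOTL1 rose by 0.32 with DHA in sh-LUC cells (SE 0.06, edgeR adjusted p = 8.5e-06) and fell by 0.56 with erastin (SE 0.06, 3.2e-14). In sh-IGFBP6 cells neither change was called, with 0.12 for DHA (95% interval 0.00 to 0.24, edgeR adjusted p = 0.139) and -0.04 for erastin (-0.17 to 0.10, 0.728). The erastin responses differed between lines by 0.52 (SE 0.09, edgeR adjusted p = 1.9e-06), and the DHA responses by -0.20 (SE 0.09, 0.0899).

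AMOTL2 (ENSG00000114019.15, chr3:134355874-134375479, minus strand), from the same family, held 203, 194 and 189 CPM in sh-IGFBP6 DHA, 256, 249 and 278 CPM in sh-IGFBP6 erastin, and 297, 289 and 328 CPM in sh-IGFBP6 control. Its sh-LUC libraries held 213, 185 and 213 CPM with DHA, 311, 327 and 357 CPM with erastin, and 299, 296 and 287 CPM in controls. The untreated lines overlapped, and the DHA groups of both lines lay below all other libraries and overlapped each other. The fall with DHA was 0.64 in sh-IGFBP6 cells (SE 0.06, edgeR adjusted p = 1.6e-17) and 0.53 in sh-LUC cells (SE 0.06, 2.8e-13), and the difference between these responses was -0.11 (95% interval -0.27 to 0.05, adjusted p = 0.387). Erastin split the lines: AMOTL2 fell by 0.26 in sh-IGFBP6 cells (SE 0.06, edgeR adjusted p = 5.5e-04) and rose by 0.18 in sh-LUC cells (SE 0.06, 0.00753), a difference of -0.44 (SE 0.08, 2.0e-05). Without the third sh-LUC erastin library the rise in sh-LUC cells was 0.12 and not called, with adjusted p between 9.6e-04 and 0.865 over the alternatives.

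LATS2 (ENSG00000150457.9, chr13:20973032-21061547, minus strand) encodes a kinase that phosphorylates YAP1. It held 99.4, 83.9 and 89.8 CPM in sh-IGFBP6 DHA, 96.0, 104 and 103 CPM in sh-IGFBP6 erastin, and 82.2, 64.6 and 71.6 CPM in sh-IGFBP6 control. In sh-LUC cells it held 68.2, 64.6 and 66.7 CPM with DHA, 97.6, 102 and 102 CPM with erastin, and 83.1, 80.0 and 84.6 CPM in controls. DHA raised LATS2 in sh-IGFBP6 cells by 0.32 (SE 0.08, edgeR adjusted p = 4.8e-04) and it fell by 0.32 in sh-LUC cells (SE 0.08, 0.00135). These opposite responses differed by 0.64 (SE 0.11, edgeR adjusted p = 2.0e-06), although the sh-LUC fall became -0.25 and was not called when no filter on low counts was used, with adjusted p between 8.2e-04 and 0.498 over the alternatives. With erastin LATS2 rose in both lines, by 0.47 in sh-IGFBP6 cells (SE 0.08, edgeR adjusted p = 1.2e-06) and by 0.29 in sh-LUC cells (SE 0.07, 7.5e-04), a difference of 0.18 (95% interval -0.03 to 0.40, 0.232).

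AXL (ENSG00000167601.12, chr19:41219203-41261766), a receptor tyrosine kinase for the ligand GAS6 that is linked to invasion in breast cancer, separated the lines without overlap. It held 731, 719 and 731 CPM in sh-IGFBP6 DHA, 809.8, 801 and 686 CPM in sh-IGFBP6 erastin, and 947, 949.8 and 961 CPM in sh-IGFBP6 control. The sh-LUC libraries held 1548, 1467 and 1415 CPM with DHA, 1345, 1330 and 1367 CPM with erastin, and 1613, 1546 and 1578 CPM in controls. All 9 sh-IGFBP6 libraries (686 to 961 CPM) lay below all 9 sh-LUC libraries (1330 to 1613 CPM). AXL was lower in untreated sh-IGFBP6 cells (log2 difference -0.73, SE 0.06, edgeR adjusted p = 6.1e-22). It fell with DHA by 0.39 in sh-IGFBP6 cells (SE 0.06, edgeR adjusted p = 2.5e-08), against -0.10 in sh-LUC cells (SE 0.06, 0.285), a difference of -0.29 (SE 0.08, 0.00534). The fall with erastin was 0.29 in sh-IGFBP6 cells (SE 0.06, edgeR adjusted p = 9.3e-05) and 0.23 in sh-LUC cells (SE 0.06, 6.0e-04), a difference of -0.06 (95% interval -0.22 to 0.11, 0.678). The sh-LUC fall was -0.18 and not called without a filter on low counts, with adjusted p between 1.5e-09 and 0.304 over the alternatives. The antisense gene AC011510.1, which shares 67 exon bases with AXL, had 267 counts in all libraries.

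YAP1 (ENSG00000137693.14, chr11:102110461-102233423) had few called changes. It held 209.6, 202 and 204 CPM in sh-IGFBP6 DHA, 241, 234 and 171 CPM in sh-IGFBP6 erastin, and 238, 228 and 231 CPM in sh-IGFBP6 control. Its libraries from sh-LUC cells held 204, 195 and 206 CPM with DHA, 189, 206 and 199 CPM with erastin, and 213, 223 and 216 CPM in controls. The only called change against control was a fall of 0.18 with DHA in sh-IGFBP6 cells (SE 0.06, edgeR adjusted p = 0.0121). That call was lost without the first sh-IGFBP6 control library (log2 change -0.16) or the second sh-IGFBP6 DHA library (-0.17), with adjusted p between 9.9e-05 and 0.496 over the alternatives. In sh-LUC cells the changes were -0.11 with DHA (95% interval -0.22 to 0.01) and -0.13 with erastin (-0.25 to -0.02). The erastin value had an edgeR adjusted p of 0.0585, which was 0.0469 without the second sh-LUC erastin library, within a range of 2.1e-04 to 0.541 over the alternatives.

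TEAD1 (ENSG00000187079.20, chr11:12674591-12944483), the more abundant of the DNA-binding partners, held 438, 446 and 394 CPM in sh-IGFBP6 DHA, 518, 513 and 385 CPM in sh-IGFBP6 erastin, and 526, 532 and 519 CPM in sh-IGFBP6 control. The line sh-LUC held 399.9, 409 and 433 CPM with DHA, 504, 515 and 503 CPM with erastin, and 475, 476 and 461 CPM in controls. DHA lowered TEAD1 in both lines, with no overlap between DHA and control libraries. The fall was 0.30 in sh-IGFBP6 cells (SE 0.05, edgeR adjusted p = 2.3e-06) and 0.18 in sh-LUC cells (SE 0.05, 0.00931), a difference of -0.12 (95% interval -0.27 to 0.03, 0.305). The sh-LUC call was lost without the second sh-LUC control library (-0.17), without the first sh-LUC DHA library (-0.16) and with no filter on low counts (-0.12), with adjusted p between 0.0048 and 0.895 over the alternatives. With erastin TEAD1 had a log2 value of -0.08 in sh-IGFBP6 cells (SE 0.06, edgeR adjusted p = 0.344), or -0.03 without the third library of that group, and by 0.11 in sh-LUC cells (SE 0.05, 0.0923). The sh-LUC value was 0.13 and called without the third sh-IGFBP6 erastin library (edgeR adjusted p = 0.0265, within a range of 0.016 to 1).

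TEAD4 (ENSG00000197905.10, chr12:2959330-3040673) separated the lines without overlap and had no called change against control. It held 49.0, 47.1 and 48.7 CPM in sh-IGFBP6 DHA, 48.6, 46.6 and 103 CPM in sh-IGFBP6 erastin, and 51.8, 53.4 and 53.9 CPM in sh-IGFBP6 control. With sh-LUC it held 22.1, 21.8 and 23.6 CPM with DHA, 31.9, 27.2 and 27.4 CPM with erastin, and 26.9, 26.2 and 24.7 CPM in controls. The value of 103 CPM rested on 27 counts in the shallow library. TEAD4 was 2.06-fold higher in untreated sh-IGFBP6 cells (log2 difference 1.04, SE 0.11, edgeR adjusted p = 1.6e-14). Its 9 sh-IGFBP6 libraries (46.6 CPM or more) lay above all 9 sh-LUC libraries (31.9 CPM or less). Its 4 changes against control had log2 values from -0.20 to 0.16 and edgeR adjusted p from 0.257 to 0.497.

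Per kilobase of exon, the levels in sh-IGFBP6 control ran from CCN1 (255 CPM per kb) and ANKRD1 (241), whose libraries overlapped, through AXL (185) and CCN2 (142) to TEAD1 (51.2) and AMOTL2 (51.0), which overlapped too. YAP1 (36.9) and TEAD4 (23.3) followed, and AMOTL1 (14.8) and LATS2 (13.1) overlapped at the low end. In sh-LUC control the order was CCN1 (412 CPM per kb), ANKRD1 (359), AXL (306), CCN2 (130.5), AMOTL2 (49.2), TEAD1 (45.8), YAP1 (34.5), AMOTL1 (19.0), LATS2 (14.8) and TEAD4 (11.4), with no overlap between neighbours. Thus TEAD4 stood above AMOTL1 and LATS2 in sh-IGFBP6 control and below both in sh-LUC control.

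Against control, DHA in sh-IGFBP6 cells changed 8 of 10 members, 1 higher (LATS2) and 7 lower (CCN1, CCN2, ANKRD1, AMOTL2, AXL, YAP1 and TEAD1). There 34.2% of all 15189 genes tested were called, 17.4% higher and 16.8% lower. The median change of the members was -0.35, against 0.002 over all genes. In sh-LUC cells DHA changed 6 of 10, 1 higher (AMOTL1) and 5 lower (CCN1, ANKRD1, AMOTL2, LATS2 and TEAD1), where 16.8% of all genes were called, 7.14% higher and 9.63% lower. The median there was -0.19, against 0.005 over all genes. Erastin in sh-IGFBP6 cells changed 5 of 10, 2 higher (ANKRD1 and LATS2) and 3 lower (CCN1, AMOTL2 and AXL), where 29% of all genes were called, 14.7% higher and 14.3% lower. In sh-LUC cells erastin changed 7 of 10, 5 higher (CCN1, CCN2, ANKRD1, AMOTL2 and LATS2) and 2 lower (AMOTL1 and AXL), where 45.9% of all genes were called, 21.4% higher and 24.4% lower. The medians under erastin were -0.06 in sh-IGFBP6 cells and 0.15 in sh-LUC cells, against 0.004 and -0.015 over all genes. The DHA and erastin groups of a line share their controls.

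**Figure D2:**
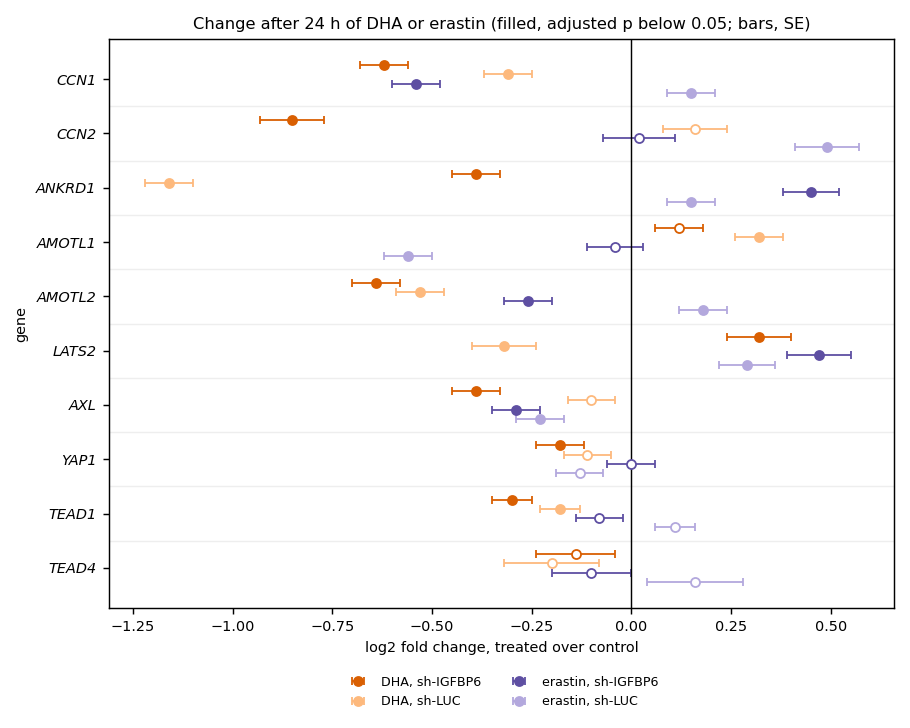
Log2 fold change of each gene, treated over control, for DHA and erastin in each line; bars are SE and filled points have an edgeR adjusted p below 0.05. The DHA points of CCN1, ANKRD1, AMOTL2 and TEAD1 are filled and lie left of 0 in both lines. Those of AXL, YAP1 and TEAD4 also lie left of 0 in both lines. AXL and YAP1 are filled there only in sh-IGFBP6 cells, and TEAD4 in neither line. CCN2 separates the lines under DHA (-0.85 in sh-IGFBP6 cells and 0.16 in sh-LUC cells).

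The untreated lines differed in 7 of the 10 genes, 2 higher in sh-IGFBP6 cells (TEAD1 and TEAD4) and 5 lower (CCN1, ANKRD1, AMOTL1, LATS2 and AXL), where 64.6% of all genes were called, 32.5% higher and 32.1% lower, so that the share of members is close to that of all genes. CCN1 (log2 difference -0.69, SE 0.06, edgeR adjusted p = 8.9e-21), ANKRD1 (-0.58, SE 0.06, 4.9e-13) and AMOTL1 (-0.36, SE 0.06, 4.0e-07) were lower, each without overlap between the lines' controls. TEAD1 was higher by 0.16 (SE 0.06, edgeR adjusted p = 0.00772; 6.5e-06 to 0.365 over the alternatives), a call that DESeq2 did not make. The LATS2 difference of -0.20 (SE 0.08, edgeR adjusted p = 0.0294) had overlapping groups, and its call was lost without the first (-0.20) or the third (-0.17) sh-LUC control, without the second (-0.11) or the third (-0.17) sh-IGFBP6 control and with no filter on low counts (-0.19), with adjusted p between 0.00575 and 0.684. CCN2 (0.12, 95% interval -0.04 to 0.28), AMOTL2 (0.05, -0.06 to 0.17) and YAP1 (0.10, -0.02 to 0.21) were not called, and CCN2 was 0.19 and called without the third sh-IGFBP6 control (edgeR adjusted p = 0.0199, within a range of 8.1e-04 to 0.518).

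The response to DHA differed between the lines in 5 of 10 genes, larger in sh-IGFBP6 cells for ANKRD1 and LATS2 and smaller for CCN1, CCN2 and AXL, where 20.6% of all genes were called, 10.4% higher and 10.2% lower. The CCN1 difference was -0.31 (SE 0.08, edgeR adjusted p = 0.0028). Larger and smaller refer here to the signed change, so that CCN2 fell in sh-IGFBP6 cells and not in sh-LUC cells. The response to erastin differed in 5 of 10 genes as well, 2 upward (ANKRD1 and AMOTL1) and 3 downward (CCN1, CCN2 and AMOTL2), where 26.2% of all genes were called, 14.1% higher and 12% lower. TEAD1 had a difference of -0.19 under erastin (SE 0.08, edgeR adjusted p = 0.0725) that was called without the third sh-IGFBP6 control (-0.23) or the first sh-IGFBP6 erastin library (-0.28), with adjusted p between 0.0183 and 0.466 over the alternatives.

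**Figure D3:**
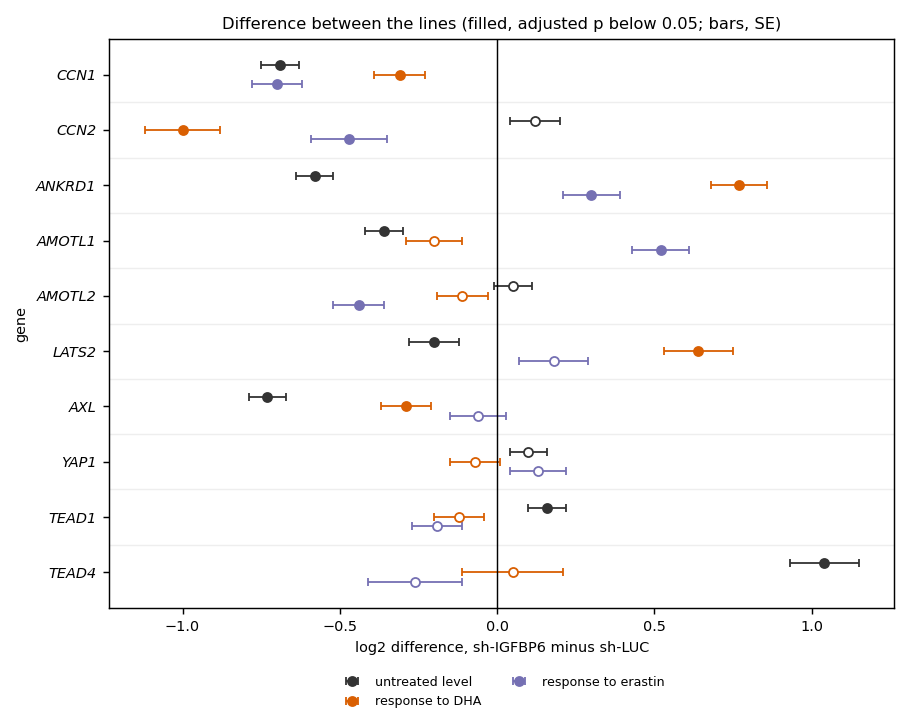
Log2 difference between the lines, sh-IGFBP6 minus sh-LUC, in untreated level (black), in the response to DHA (orange) and in the response to erastin (violet); bars are SE and filled points have an edgeR adjusted p below 0.05. CCN1 and AXL lie left of 0 in all 3 rows, AXL without a call for erastin (-0.06). ANKRD1 is lower in level (-0.58) with a response difference to the right of 0 for both agents (0.77 and 0.30).

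The treated groups were also compared directly, at doses that differ because the agents do. In sh-IGFBP6 cells 5 of the 10 genes were lower with DHA than with erastin and 0 were higher, where 25.9% of all genes were called, 13.1% higher and 12.8% lower. CCN2 (-0.87, SE 0.09, edgeR adjusted p = 2.6e-08), ANKRD1 (-0.84, SE 0.07, 1.6e-17) and AMOTL2 (-0.38, SE 0.06, 6.3e-07) were lower without overlap. TEAD1 (-0.23, SE 0.06, edgeR adjusted p = 0.00137) and YAP1 (-0.18, SE 0.06, 0.0225) had overlapping groups and turned to 0.07 and 0.11 when libraries were scaled by total counts alone. Both calls were lost without the first sh-IGFBP6 erastin library (TEAD1 -0.17, YAP1 -0.12), as was that of YAP1 without the second sh-IGFBP6 erastin library (-0.18) or the second (-0.17) or the third (-0.18) sh-IGFBP6 DHA library, while AXL (-0.10) was -0.17 and called without the third sh-IGFBP6 erastin library. Adjusted p ranged over the alternatives from 2.1e-05 to 0.881 for TEAD1, 0.00234 to 0.817 for YAP1 and 0.0144 to 0.719 for AXL. CCN1 did not differ beyond its spread (-0.07, 95% interval -0.20 to 0.05).

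In sh-LUC cells 8 of 10 genes differed between DHA and erastin, 1 higher with DHA and 7 lower, where 50.2% of all genes were called, 26% higher and 24.2% lower. AMOTL1 was 1.84-fold higher with DHA (log2 difference 0.88, SE 0.06, edgeR adjusted p = 1.4e-28). ANKRD1 (-1.31, SE 0.06, edgeR adjusted p = 5.4e-30), AMOTL2 (-0.71, SE 0.06, 2.2e-22), LATS2 (-0.60, SE 0.07, 1.5e-13) and CCN1 (-0.47, SE 0.06, 3.1e-12) were lower with DHA, all without overlap. The differences of TEAD4 (-0.35), CCN2 (-0.33) and TEAD1 (-0.29) were smaller and also called. AXL was 0.13 with an edgeR adjusted p of 0.0501, and was called without the third sh-LUC DHA library (0.16) or the third sh-IGFBP6 erastin library (0.11). It was also called with DESeq2 (0.12), without mitochondrial ribosomal RNA counts (0.13), with only the groups compared (0.12) and with a replicate block (0.13). Scaling by total counts without the third sh-IGFBP6 erastin library gave a call too (0.29). Adjusted p lay between 7.1e-08 and 0.359 over the alternatives. YAP1 changed by 0.02 (95% interval -0.09 to 0.13).

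A list of 22 other YAP and TEAD target genes was set beside the members, all of them tested. With DHA, 14 were lower and 1 higher in sh-IGFBP6 cells (median log2 change -0.43), where 16.8% of all genes were lower and 17.4% higher, and 12 were lower and 0 higher in sh-LUC cells (median -0.21), where 9.63% of all genes were lower and 7.14% higher. In sh-IGFBP6 cells CAVIN2, a caveolar coat protein, fell by 3.73 (SE 0.08, edgeR adjusted p = 1.1e-71) and AJUBA, a LIM protein that inhibits LATS kinases, fell by 0.85 (SE 0.07, 3.0e-22). In sh-LUC cells TGFB2, a transforming growth factor, fell by 1.23 (SE 0.06, edgeR adjusted p = 2.3e-32) and CCDC80, a matrix protein, fell by 0.79 (SE 0.08, 3.1e-16). GADD45A, a stress-induced growth arrest gene, went the other way with a rise of 0.81 in sh-IGFBP6 cells (SE 0.10, edgeR adjusted p = 5.3e-11). With erastin the list was divided, with 9 lower and 3 higher in sh-IGFBP6 cells (median -0.17; 14.3% and 14.7% of all genes) and 8 lower and 7 higher in sh-LUC cells (median -0.08; 24.4% and 21.4% of all genes). GADD45A rose 2.06-fold in sh-IGFBP6 cells (edgeR adjusted p = 2.6e-15) and 3.38-fold in sh-LUC cells (1.0e-24). TGM2, a transglutaminase that crosslinks proteins, fell with erastin in sh-LUC cells by 1.74 (SE 0.07, edgeR adjusted p = 4.7e-20). BIRC5, the mitotic survival protein survivin, fell by 0.96 in sh-IGFBP6 cells (SE 0.08, edgeR adjusted p = 6.3e-21) and 1.05 in sh-LUC cells (SE 0.07, 1.4e-26). Between the untreated lines 15 of the 22 were lower and 4 higher in sh-IGFBP6 cells (median -0.51, or -0.47 without FOXF2, which had 0 counts in sh-IGFBP6 control, against 0.006 over all genes). Of all genes, 32.1% were lower and 32.5% higher there. THBS1, the matrix protein thrombospondin (-5.17, SE 0.09, edgeR adjusted p = 4.8e-88), TGFB2 (-5.66, SE 0.11, 1.3e-71), the tissue factor gene F3 (-2.53, SE 0.06, 6.9e-70) and ASAP1 (-1.30, SE 0.07, 1.1e-34) were lower, and the ecto-nucleotidase gene NT5E (1.09, SE 0.06, 1.7e-29) was higher. The response to DHA differed between lines upward in 6 and downward in 8 of the 22 (10.4% and 10.2% of all genes), and the response to erastin upward in 2 and downward in 9 (14.1% and 12% of all genes).

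Among 22 genes for Hippo kinases and scaffolds, calls ran both ways under every treatment. DHA raised 7 and lowered 7 in sh-IGFBP6 cells and raised 3 and lowered 5 in sh-LUC cells, and erastin raised 6 and lowered 8 in sh-IGFBP6 cells and raised 6 and lowered 3 in sh-LUC cells. With DHA 63.6% of the list was called in sh-IGFBP6 cells and 36.4% in sh-LUC cells, where 34.2% and 16.8% of all genes were called. With erastin 63.6% of the list was called in sh-IGFBP6 cells and 40.9% in sh-LUC cells, where 29% and 45.9% of all genes were called. FAT4, an atypical cadherin upstream of the pathway, fell with DHA by 1.05 in sh-IGFBP6 cells (SE 0.08, edgeR adjusted p = 7.5e-22) and by 0.88 in sh-LUC cells (SE 0.06, 6.1e-24). NF2 changed by -0.30 with erastin in sh-IGFBP6 cells (SE 0.10, edgeR adjusted p = 0.0182) and by 0.60 in sh-LUC cells (SE 0.09, 2.9e-08), a difference of -0.90 (SE 0.14, 9.0e-08). LATS1, the paralog of LATS2, rose by 0.57 with erastin in sh-IGFBP6 cells (SE 0.11, edgeR adjusted p = 5.1e-06). Between the untreated lines 5 were higher and 11 lower, 72.7% of the list against 64.6% of all genes. AMOT, the founding angiomotin, had 394 counts over the 3 sh-IGFBP6 control libraries and 2 over the 3 sh-LUC control libraries, a ratio of 162 with an exact 95% interval of 44.5 to 1341 that covers counting error only. The kinase STK4 was higher by 0.65 (SE 0.06, edgeR adjusted p = 4.4e-17) and the scaffold WWC1 by 0.95 (SE 0.11, 8.6e-14), while the related scaffold WWC3 was lower (-1.38, SE 0.07, 1.0e-39).

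**Figure D4:**
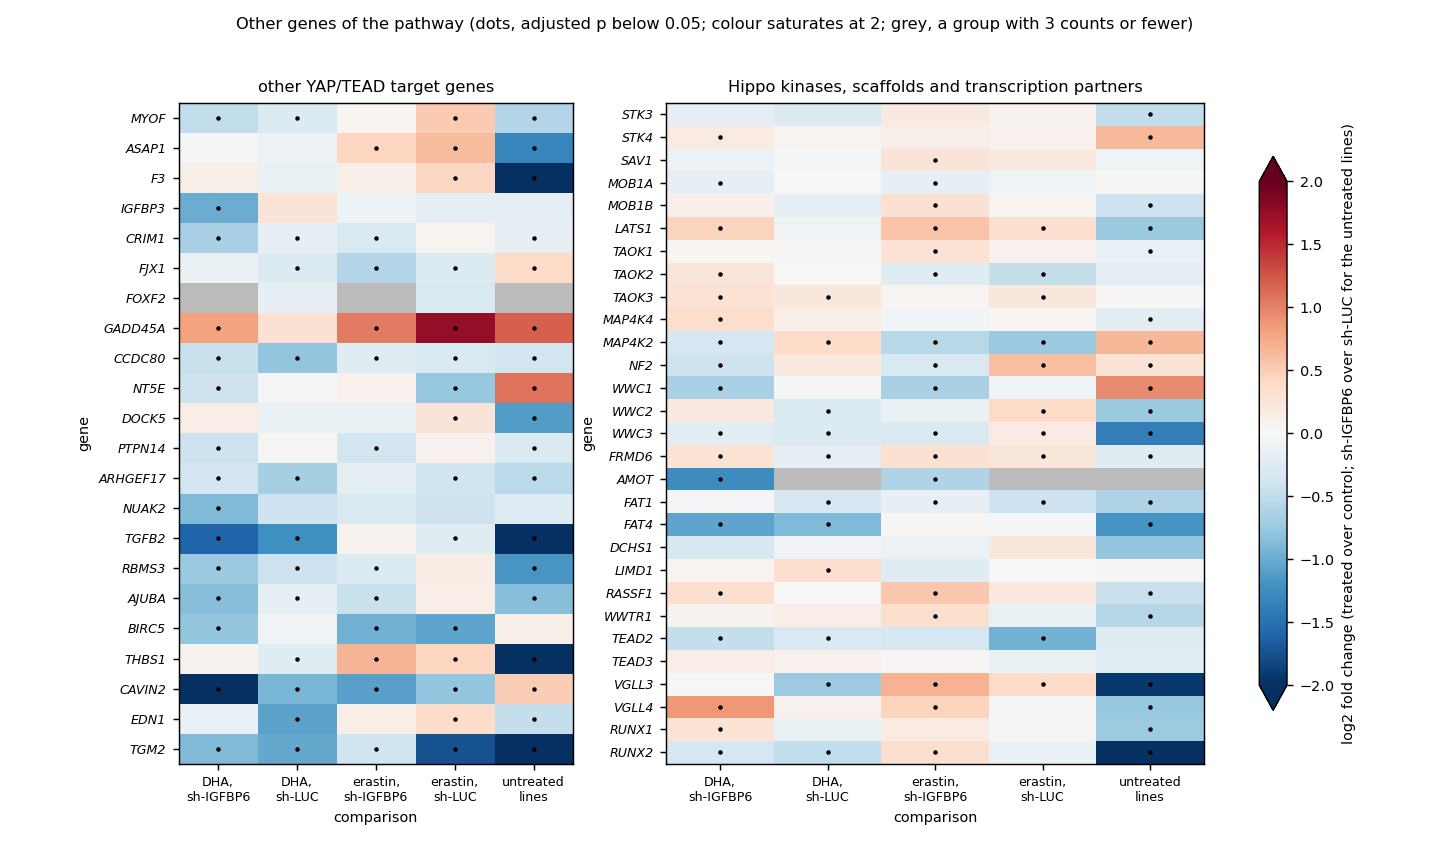
Log2 fold change of 22 other YAP and TEAD target genes (left) and of the Hippo kinases, scaffolds and transcription partners tested (right) for the 4 treatments over control and for the untreated lines, sh-IGFBP6 over sh-LUC; dots mark an edgeR adjusted p below 0.05 and grey marks a group with 3 counts or fewer in all. CAVIN2 is blue in all 4 treatments and GADD45A red, though not called with DHA in sh-LUC cells (0.31), and TGFB2 and THBS1 are blue between the untreated lines (-5.66 and -5.17).

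Of 7 transcription partners tested, 5 were lower and 0 higher in untreated sh-IGFBP6 cells than in sh-LUC cells (median -0.72), 71.4% of them called, a share close to the 64.6% of all genes. RUNX2, a bone-associated factor that binds YAP1, had a log2 difference of -2.03 (SE 0.10, edgeR adjusted p = 3.5e-39), and the TEAD cofactor VGLL3 of -1.93 (SE 0.16, 5.7e-21). With erastin 4 of the 7 rose and 0 fell in sh-IGFBP6 cells, among them the YAP1 paralog WWTR1 by 0.32 (SE 0.08, edgeR adjusted p = 5.2e-04), against 1 that rose and 1 that fell in sh-LUC cells, where TEAD2 fell by 0.95 (SE 0.12, 4.6e-11). These are 57.1% and 28.6% of the partners, against 29% and 45.9% of all genes. With DHA 2 rose and 2 fell in sh-IGFBP6 cells (57.1%, against 34.2% of all genes) and 0 rose and 3 fell in sh-LUC cells (42.9%, against 16.8%). VGLL4, which competes with YAP1 for TEAD, rose by 0.86 with DHA in sh-IGFBP6 cells (SE 0.12, edgeR adjusted p = 7.0e-10), and RUNX2 fell by 0.49 with DHA in sh-LUC cells (SE 0.08, 1.6e-07).

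SRF with its coactivator MRTFA, an actin-sensing pair, shares several targets with YAP1, and 14 of 15 listed genes of that axis were tested. With DHA 2 rose and 7 fell in sh-IGFBP6 cells (64.3%, against 34.2% of all genes) and 0 rose and 5 fell in sh-LUC cells (35.7%, against 16.8%). With erastin 1 rose and 6 fell in sh-IGFBP6 cells (7 of 14, against 29% of all genes) and 1 rose and 8 fell in sh-LUC cells (64.3%, against 45.9%). VCL, the adhesion protein vinculin, fell with DHA by 0.59 in sh-IGFBP6 cells (SE 0.06, edgeR adjusted p = 2.8e-17) and with erastin by 0.66 in sh-LUC cells (SE 0.05, 1.9e-20). The genes that rose with DHA in sh-IGFBP6 cells were MRTFA (0.57, SE 0.11, edgeR adjusted p = 1.9e-05) and FLNA (0.17, SE 0.06, 0.027). Those that rose with erastin were MRTFA in sh-IGFBP6 cells (0.35, SE 0.12, edgeR adjusted p = 0.0207) and FHL2 in sh-LUC cells (0.57, SE 0.08, 5.4e-09). In untreated sh-IGFBP6 cells 9 were lower and 1 higher than in sh-LUC cells (median -0.65; 71.4% called, against 64.6% of all genes). The lower genes included the myosin light chain MYL9 (-3.29, SE 0.10, edgeR adjusted p = 9.6e-61), the actin ACTG1 (-1.67, SE 0.07, 3.4e-48) and the tropomyosin TPM1 (-2.22, SE 0.09, 5.7e-46). MRTFA was lower too (-1.35, SE 0.11, edgeR adjusted p = 3.4e-22), and SRF was the higher gene (0.27, SE 0.07, 4.1e-04).

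CCN3, the only other CCN family gene tested, was lower in untreated sh-IGFBP6 cells (log2 difference -1.71, SE 0.13, edgeR adjusted p = 1.4e-23). It rose in sh-IGFBP6 cells with DHA by 0.54 (SE 0.15, edgeR adjusted p = 0.00211) and with erastin by 0.62 (SE 0.15, 5.6e-04), where CCN1 fell. In sh-LUC cells CCN3 changed by -0.34 with erastin (SE 0.1, edgeR adjusted p = 0.0029) and was not called with DHA (-0.11). Among the relatives of AXL, the ligand GAS6 was lower in untreated sh-IGFBP6 cells (log2 difference -1.99, SE 0.07, edgeR adjusted p = 1.0e-55) and the receptor MERTK higher (2.22, SE 0.11, 4.1e-40). GAS6 fell with DHA by 0.37 in sh-IGFBP6 cells (SE 0.08, edgeR adjusted p = 2.8e-05) and 0.31 in sh-LUC cells (SE 0.06, 6.7e-06), and with erastin by 0.34 in sh-IGFBP6 cells (SE 0.08, 3.1e-04) and 0.29 in sh-LUC cells (SE 0.06, 1.1e-05).

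Likeness to a member was measured as Pearson's r of log2 CPM over the 18 libraries, which fall into 6 groups and so share line and treatment. CCN1 was most like AJUBA (r = 0.976), OSBPL3 (0.974) and LYPD6 (0.968). AXL was most like PCDH7 (r = 0.994), HSPG2 (0.992) and F2R (0.991). ANKRD1 was most like PFKFB2 (r = 0.906), TP53INP2 (0.906) and CTNNA1 (0.899), and CCN2, with lower values, was most like MIR137HG (r = 0.864), RNF144B (0.857) and CLIC4 (0.85). Among the members, CCN1 and AXL had r = 0.91, ANKRD1 and AMOTL2 0.83, AMOTL1 and TEAD1 -0.67, and AXL and TEAD4 -0.90.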

How the data were processed

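Gene expression of MDA-MB-231 cells was measured by RNA sequencing in 18 libraries, and columns were matched to groups through the sample labels. The values are counts of reads per gene as deposited, not normalized. Ribosomal RNA was depleted before an MGIEasy library preparation, per the labels' protocols. The submitters' processing notes name cutadapt 4.4, STAR 2.7.7a, featureCounts and the build GRCh38. The counting's strand setting and annotation are not given in the sources read, so reads of overlapping antisense genes cannot be assigned. No pair of libraries was identical. A line with counts but no gene (at most 0.01082% of a library) stayed out.

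All 18 libraries entered 1 fit in edgeR 4.0.16 (R 4.3.3) with TMM factors, filterByExpr at a minimum count of 10, a coefficient per group and robust quasi-likelihood F tests on 12 residual degrees of freedom. This left 15189 genes with a biological coefficient of variation of 6.29%. Adjusted p is Benjamini-Hochberg over all genes tested, and genes were called below 0.05. The script was tested on simulated data. In each line DHA and erastin were set against control and against each other. The lines were compared untreated and in their response to each agent. Alternatives were other scaling factors, DESeq2 1.42.0, no filter, only the groups compared, a replicate block, mitochondrial ribosomal RNA removed, and each replicate left out.

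The members and lists were chosen with earlier results of these data known. A few listed genes are not reported here and were left out of the list counts. Besides the members, the text names called genes of each list with the smallest p (up to 4 per comparison), called genes that moved against the rest of their list (up to 2), and the 3 genes most like CCN1, CCN2, ANKRD1 and AXL. Exon lengths and coordinates are those of GENCODE 29 on GRCh38.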

Additional observations from a re-analysis of the deposited data

Results flagged for a closer look

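The response to a treatment differed between the lines, by the test of the difference itself (edgeR, interaction of line and treatment, log2, sh-IGFBP6 minus sh-LUC) for the genes below, where 20.6% of all genes differed under DHA and 26.2% under erastin. Under DHA the differences were -0.31 for CCN1 (adjusted p = 0.0028), -1.0 for CCN2 (2.4e-07), 0.77 for ANKRD1 (9.5e-11), 0.64 for LATS2 (2.0e-06) and -0.29 for AXL (0.00534). Under erastin they were -0.70 for CCN1 (edgeR adjusted p = 2.3e-11), -0.47 for CCN2 (0.00368), 0.30 for ANKRD1 (0.00655), 0.52 for AMOTL1 (1.9e-06) and -0.44 for AMOTL2 (2.0e-05). CCN1 and AMOTL2 under erastin, and LATS2 under DHA, had called changes of opposite sign in the lines. In sh-LUC cells the CCN1 rise lost its call without the third erastin library (0.09), without the first or second control library and with DESeq2, the AMOTL2 rise without the third erastin library (0.12) and the LATS2 fall with no filter on low counts (-0.25).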

How the results depend on the processing

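For the 90 values of 10 genes in 9 comparisons, 1328 of 1440 alternative values kept their side of the threshold (28 of these, called in neither setting, changed sign), 78 lost the call, 32 gained one and 2 called values changed sign: YAP1 (0.11) and TEAD1 (0.07), DHA against erastin in sh-IGFBP6 cells, with libraries scaled by total counts alone. Under that scaling 3 (DHA) and 2 (erastin) members were called in sh-IGFBP6 cells, where 17% and 18% of all genes were called. In sh-LUC cells 1 (DHA) and 1 (erastin) were called, against 4.98% and 30.1% of all genes. Between untreated lines 3 members were called, against 53.4% of all genes. For the line differences 1 (DHA) and 0 (erastin) were called, against 6.85% and 8.74% of all genes. For DHA against erastin 0 were called in sh-IGFBP6 cells and 4 in sh-LUC cells, against 10.1% and 36.1% of all genes. Without the third sh-IGFBP6 erastin library as well, an alternative chosen after seeing the data, 8 members differed between lines under DHA. Of all genes, 23.2% were called there, 944 higher and 2710 lower. That scaling moved the median log2 change of all genes to -0.185 for erastin in sh-IGFBP6 cells, -0.123 for erastin in sh-LUC cells, 0.105 between untreated lines, -0.138 for the line difference under DHA and 0.17 for DHA against erastin in sh-LUC cells. The share of calls that were higher became 33.3% (50.8% with TMM) for DHA and 23.1% (50.5%) for erastin in sh-IGFBP6 cells, 31.9% (46.7%) for erastin in sh-LUC cells, 26.5% (50.6%) for the line difference under DHA, and 63.1% (50.6%) and 73.5% (51.8%) for DHA against erastin in sh-IGFBP6 and sh-LUC cells.

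Leaving out 1 library gave 4 to 8 members called for erastin in sh-LUC cells and 3 to 6 for DHA against erastin in sh-IGFBP6 cells. The lowest counts came without the third sh-LUC erastin library (42.9% of all genes called) and the first sh-IGFBP6 erastin library (16.6%). Both highest counts came without the third sh-IGFBP6 erastin library, where 44.8% and 24.6% of all genes were called.

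Counts over all genes moved by over 1.5 times with scaling by total counts alone: 2579 for DHA and 2728 for erastin in sh-IGFBP6 cells against 5202 and 4404, 756 and 4571 in sh-LUC cells against 2546 and 6967, 1041 and 1327 for the line differences against 3124 and 3973, and 1541 for DHA against erastin in sh-IGFBP6 cells against 3928. DESeq2 called 1555 for DHA in sh-LUC cells, 2068 for the line difference under DHA and 2422 for DHA against erastin in sh-IGFBP6 cells, and leaving out the first sh-IGFBP6 erastin library left 2592 in that comparison. With the replicate block, AXL (DHA against erastin in sh-LUC cells, log2 0.13, edgeR adjusted p = 0.0451) and TEAD1 (line difference under erastin, -0.20, 0.0487) were called, and no other member's call changed. Libraries with the same number did not deviate together: 0 of 21 pairs had a correlation over 0.1 (-0.04 to 0.079). The causes were not tested. Depth limits the third sh-IGFBP6 erastin library most.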
